A study of Mus musculus with 4 samples.

Results

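The E proteins and their Id inhibitors were examined in CD69+DP thymocytes, the CD4+CD8+ cells that have received a TCR signal and begun positive selection. The 6 genes were taken by symbol from the 24421 genes listed: *Tcf3*, *Tcf12* and *Tcf4*, which encode the E proteins, and *Id1*, *Id2* and *Id3*, which encode the inhibitors. RNA was sequenced from 4 samples of adult C57BL/6 mice aged 6 weeks. The 2 control samples came from Foxa1fl/flFoxa2fl/fl mice without the CD4Cre transgene, and the 2 Foxa1/2cKO samples came from mice with the same floxed alleles and CD4Cre. In the latter, Cre is driven by the *Cd4* promoter, so that both genes are deleted in T-lineage cells from the DP stage onwards and not in other thymic cells. The samples were sorted from different mice, and the study describes 2 mice of each genotype per sort. Values are FPKM (fragments scaled to gene length and to a depth value for each sample), which allow levels of different genes to be compared per length.

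E proteins are basic helix-loop-helix transcription factors that bind a short DNA motif, the E box, as dimers. Id proteins have the helix-loop-helix but no basic region, so an E protein paired with an Id protein cannot bind DNA. In the thymus the dimers of *Tcf3* and *Tcf12* products (the latter called HEB) hold thymocytes at the DP stage, and TCR signalling through ERK and Egr factors induces *Id3*, which lowers E protein activity during positive selection. *Id2* is best known for innate lymphocytes, NK cells and mature T cells.

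The members are close relatives, so their most alike coding stretches are shown to place the shared part and the degree to which reads could be told apart. For the Id genes this was a stretch of 60 bases in exon 1 of each, which codes for part of the helix-loop-helix. It lies at chr4:136144071-136144130 on the plus strand of mm10 in *Id3*, at chr2:152736587-152736646 on the plus strand in *Id1* and at chr12:25095774-25095833 on the minus strand in *Id2*. Sequences are from the GENCODE transcripts, and capitals mark bases that differ from *Id3* (12 in *Id1* and 13 in *Id2*).
Id3: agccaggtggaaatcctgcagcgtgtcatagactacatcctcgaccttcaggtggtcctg
Id1: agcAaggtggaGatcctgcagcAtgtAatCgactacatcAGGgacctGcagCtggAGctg
Id2: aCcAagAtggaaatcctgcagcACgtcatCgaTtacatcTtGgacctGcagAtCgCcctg

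In *Tcf12* and *Tcf3* the most alike 60 bases lie near the 3′ end of the coding sequence, across exons 19 and 20 of *Tcf12* (chr9:71849897-71856335, minus strand, intron included) and exons 18 and 19 of *Tcf3* (chr10:80410246-80412857, minus strand, intron included). Capitals mark the 10 bases that differ from *Tcf12*.
Tcf12: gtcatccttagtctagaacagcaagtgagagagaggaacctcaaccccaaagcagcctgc
Tcf3: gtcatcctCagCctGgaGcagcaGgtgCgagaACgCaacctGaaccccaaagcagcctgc

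The longest run of bases shared by the longest transcripts of any pair of the 6 genes was 26 bases, between *Tcf12* and *Tcf4*, and 19 bases between *Id2* and *Id3*. Of the stretches of 50 bases in the longest transcript, 0.19% in *Tcf12* and 0.42% in *Id2* also occur in another annotated gene, and 0% in the other 4 genes. The exons of the 6 genes overlapped 0 other annotated genes on either strand.

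The depth value by which the FPKM were divided, inferred from the FPKM, ranged from 10796528 to 14968316 per sample. In Foxa1/2cKO replicate 2 the reads recovered on listed genes (11261099) exceeded this value (11093927). In each of the other samples they were below it. The value therefore need not equal the fragments sequenced, and its relation to the reads differed in Foxa1/2cKO replicate 2. *Foxa1* and *Foxa2* had no reads in either group, so that the genotypes could not be checked from their RNA, and a count of 0 allows up to 3 reads per sample. *Cd4*, *Cd8a* and *Cd69*, which encode the surface markers of the sort, and *Rag1*, a gene of DP cells, were all well above 0 in every sample, and the summed FPKM of 7 DP markers ranged from 2330 to 3011. Foxa1/2cKO replicate 2 stood apart on the first principal component (28.5, against -11.0 to -7.42 in the other samples), which held 65.2% of the variance. The SD over genes of the log2 difference within a group was 0.198 for control and 0.405 for Foxa1/2cKO. Differences of the members are therefore also given without Foxa1/2cKO replicate 2. Genes were fitted together on log2(FPKM + 1) with limma, using the 10776 genes that reached an FPKM of 1 in 2 samples or more. All 6 members passed this filter.

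All 6 genes were expressed, at levels that spanned a wide range. In the controls the order per length was *Id3*, *Tcf3*, *Tcf12*, *Id2*, *Tcf4* and *Id1*, and no neighbours in this order overlapped between the 2 controls. The mean control level of *Id3* exceeded that of 97.2% of the genes tested, and those of *Tcf3* and *Tcf12* exceeded 93.7% and 92.0%. *Tcf4* exceeded 27.9% and *Id1* 9.28%. In the Foxa1/2cKO samples the ranges of *Tcf3* and *Tcf12* overlapped, although *Tcf3* was the higher of the pair within each of the 4 samples.

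**Figure D1:**
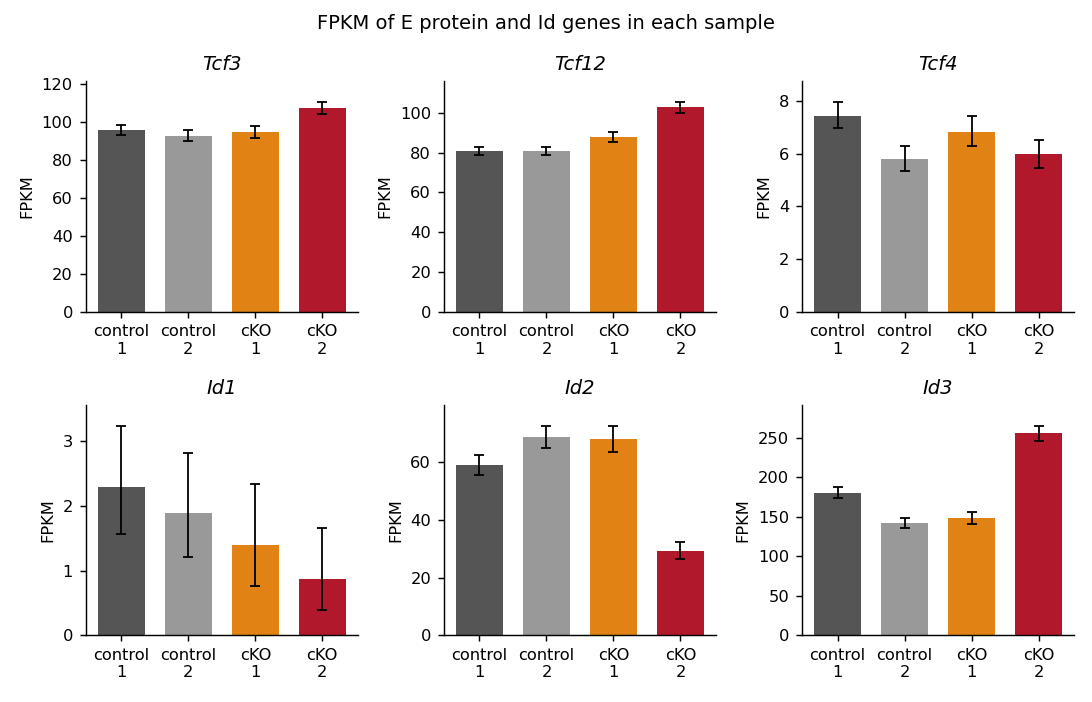
FPKM (y axis, linear from 0) of the 6 genes in each of the 4 samples (x axis; cKO stands for Foxa1/2cKO). Bars are single samples and error bars are exact 95% Poisson intervals of the reads, which cover counting error only; *Id2* was 29.3 and *Id3* 255 in Foxa1/2cKO replicate 2, outside the other 3 samples.

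After Benjamini-Hochberg adjustment of the limma p over all genes, 0 of the 6 members passed the threshold of 0.05, compared with 0.00928% of all genes tested. One gene of the 6, *Id1*, had an unadjusted p under 0.05 and was the lower in Foxa1/2cKO. Of all genes tested 4.55% had such a p, 2.39% with the higher and 2.15% with the lower mean in Foxa1/2cKO. Both Foxa1/2cKO samples lay on one side of both controls for 2 of the 6 genes, *Tcf12* (above) and *Id1* (below), and this was so for 36.7% of all genes tested. The 6 genes had 3 positive and 3 negative log2 fold changes, with a median of 0.03, against 0.01 over all genes. With 2 samples in each group the smallest two-sided p of an exact permutation test is 0.333, so that test was not used for single genes.

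*Tcf3* lies on the minus strand of chromosome 10 of mm10 (80409514 to 80433647) and had 3619 to 5088 reads per sample. Its FPKM was 95.8 and 92.6 in controls 1 and 2, 94.5 in Foxa1/2cKO replicate 1 and 107 in Foxa1/2cKO replicate 2. Foxa1/2cKO replicate 1 fell between the controls and Foxa1/2cKO replicate 2 lay above them. The control mean was 94.2 ± 2.26 and the Foxa1/2cKO mean 101 ± 8.90 FPKM (SD, n = 2 each). The log2 fold change was 0.09, with a 95% interval of -0.17 to 0.35 (limma, Benjamini-Hochberg adjusted p = 0.872). It was 0.004 without Foxa1/2cKO replicate 2 and 0.18 without Foxa1/2cKO replicate 1.

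*Tcf12* (chromosome 9, 71842688 to 72111871, minus strand) encodes HEB, the partner of the *Tcf3* product in thymocytes. Its FPKM was 80.9 and 80.7 in the controls, 87.9 in Foxa1/2cKO replicate 1 and 103 in Foxa1/2cKO replicate 2, from 4801 to 6131 reads. The controls were nearly equal and both Foxa1/2cKO values exceeded them, and the gap between the Foxa1/2cKO samples was wider than the gap from Foxa1/2cKO replicate 1 to the controls. The means were 80.8 ± 0.186 and 95.3 ± 10.5 FPKM (SD, n = 2 each), a 1.18-fold difference. The log2 fold change was 0.23 (95% interval -0.05 to 0.51, unadjusted p = 0.0863, limma, Benjamini-Hochberg adjusted p = 0.863). Without Foxa1/2cKO replicate 2 it was 0.12, whereas without Foxa1/2cKO replicate 1 it was 0.34. Each of these fits rests on 1 Foxa1/2cKO sample assumed to vary as the controls do. Their p-values are therefore not given for the members.

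*Tcf4* (chromosome 18, 69343356 to 69689079, plus strand) encodes the E protein that defines plasmacytoid dendritic cells and is also used by B cells. It was the lowest of the E proteins, with 2.77% to 4.05% of their summed FPKM. Its FPKM was 7.45 and 5.81 in controls 1 and 2, 6.84 in Foxa1/2cKO replicate 1 and 5.99 in Foxa1/2cKO replicate 2, from 510 to 857 reads. The groups overlapped, and control 1 and Foxa1/2cKO replicate 1 held the higher values. The log2 fold change was -0.04 (95% interval -0.44 to 0.37, limma, Benjamini-Hochberg adjusted p = 0.972), and it was 0.05 without Foxa1/2cKO replicate 2 and 0.12 without control 1. The direction thus turned with either of these samples.

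The summed markers of B cells and of plasmacytoid dendritic cells were also highest in control 1 and Foxa1/2cKO replicate 1. So were those of myeloid cells and of NK and innate lymphoid cells. The order was thus not particular to the cell types named for *Tcf4*. The summed FPKM of 4 B cell markers (*Cd79a*, *Cd79b*, *Ms4a1* and *Pax5*) was 56.2 and 39.1 in controls 1 and 2, 76.3 in Foxa1/2cKO replicate 1 and 43.0 in Foxa1/2cKO replicate 2, and 0 of the 4 were at 0 in any sample. *Siglech*, which marks plasmacytoid dendritic cells, was at 5.74, 2.52, 6.65 and 4.36 FPKM in the same order, and the sum of the 6 markers of that list at 264, 249, 298 and 169. Most of the latter sum was *Ly6d*, at 200.4, 198, 230 and 127. The 4 B cell markers and the 6 of the plasmacytoid dendritic cell list were thus all above 0 in cells sorted as CD4+CD8+CD69+. The part of these markers in the *Tcf4* values was not tested. In bulk RNA, fewer cells of a type and less RNA per cell cannot be told apart.

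*Id1* (chromosome 2, 152736251 to 152737410, plus strand), a target of BMP signalling in many tissues, was close to the limit of detection. It had 32 and 24 reads in the controls, 14 in Foxa1/2cKO replicate 1 and 9 in Foxa1/2cKO replicate 2. The FPKM was 2.29 (exact 95% Poisson interval 1.57 to 3.23), 1.89 (1.21 to 2.82), 1.39 (0.759 to 2.33) and 0.869 (0.397 to 1.65) in the same order, counting error only. Both Foxa1/2cKO samples lay below both controls, but the interval of each Foxa1/2cKO sample overlapped those of both controls. The means were 2.09 ± 0.280 and 1.13 ± 0.368 FPKM (SD, n = 2 each), or 1.85-fold lower in Foxa1/2cKO. On log2(FPKM + 1), which understates the change of low genes, the fold change was -0.55 (95% interval -1.08 to -0.01, unadjusted p = 0.0476, limma, Benjamini-Hochberg adjusted p = 0.863). It was -0.37 without Foxa1/2cKO replicate 2 and -0.72 without Foxa1/2cKO replicate 1. The unadjusted p was 0.0538 with a pseudocount of 0.1, where the log2 fold change was -0.86. Of 8 markers of thymic stroma, where *Id1* is also used, 6 were under 1 FPKM in every sample (*Foxn1*, *Krt5*, *Krt8*, *Pdgfra*, *Col1a1* and *Cdh5*). *Epcam* was at 2.76 to 3.86 FPKM and *Pecam1*, which lymphocytes also express, at 48.6 to 61.8.

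*Id2* (chromosome 12, 25093799 to 25097140, minus strand) was similar in 3 of the 4 samples and lower in the remaining one. Its FPKM was 59.0 in control 1, 68.5 in control 2 and 67.9 in Foxa1/2cKO replicate 1, and 29.3 in Foxa1/2cKO replicate 2, from 414 to 1183 reads. Foxa1/2cKO replicate 1 fell within the range of the controls, whereas Foxa1/2cKO replicate 2 was 2.31-fold lower than Foxa1/2cKO replicate 1. Of all genes tested, 2.42% differed more between the Foxa1/2cKO samples on the log2 scale. The group means were 63.7 ± 6.73 and 48.6 ± 27.2 FPKM (SD, n = 2 each), so the difference of the means was smaller than the SD of Foxa1/2cKO. The log2 fold change of -0.50 (95% interval -1.55 to 0.55, limma, Benjamini-Hochberg adjusted p = 0.863) became 0.093 without Foxa1/2cKO replicate 2 and -1.09 without Foxa1/2cKO replicate 1.

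*Id3* (chromosome 4, 136143497 to 136145755, plus strand), the member induced by TCR signalling, had the highest level of the 6 genes in every sample. Its FPKM was 181 and 142 in controls 1 and 2, 149 in Foxa1/2cKO replicate 1 and 255 in Foxa1/2cKO replicate 2, from 1528 to 2701 reads. Foxa1/2cKO replicate 1 again fell within the controls, and Foxa1/2cKO replicate 2 was 1.72-fold higher than Foxa1/2cKO replicate 1, a difference that 6.28% of all genes tested exceeded. The means were 161 ± 27.5 and 202 ± 75.6 FPKM (SD, n = 2 each). The log2 fold change was 0.28 (95% interval -0.48 to 1.04, limma, Benjamini-Hochberg adjusted p = 0.870), -0.11 without Foxa1/2cKO replicate 2 and 0.67 without Foxa1/2cKO replicate 1. For both *Id2* and *Id3* the direction of the group difference was therefore set by 1 sample. The sign changed without Foxa1/2cKO replicate 2 for 30.1% of all genes tested, and for 3 of the 6 members, the third being *Tcf4*.

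**Figure D2:**
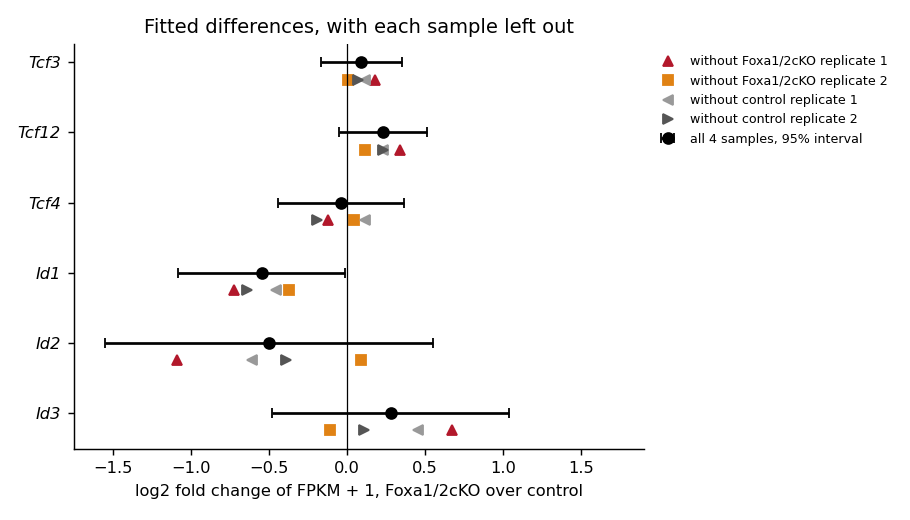
Log2 fold change of FPKM + 1 in Foxa1/2cKO over control (x axis) for each gene (y axis). Black points with bars are the fit to all 4 samples with its 95% interval, and the symbols under them are the fits without 1 sample each; only the interval of *Id1*, -1.08 to -0.01, lies on one side of 0, and *Id2* and *Id3* change sign without Foxa1/2cKO replicate 2.

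The balance between the families was next compared per sample, as a description. The summed FPKM of the E proteins was 184 and 179 in controls 1 and 2, 189 in Foxa1/2cKO replicate 1 and 216 in Foxa1/2cKO replicate 2. The summed FPKM of the Id genes was 242, 212, 218 and 286 in the same order. The ratio of E protein to Id RNA was thus 0.761 and 0.844 in control against 0.869 and 0.755 in Foxa1/2cKO, and the groups overlapped. The mean log2 ratio differed by 0.02 between the groups, against an SD within groups of 0.125.

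The shares within each family were compared in the same way, as a description. Among the E proteins, *Tcf3* held 52.0%, 51.7%, 49.9% and 49.6% of the sum in control 1, control 2, Foxa1/2cKO replicate 1 and Foxa1/2cKO replicate 2, and *Tcf12* held 43.9%, 45.0%, 46.4% and 47.6%. The ratio of *Tcf3* to *Tcf12* was 1.18 and 1.15 in control against 1.08 and 1.04 in Foxa1/2cKO, without overlap. Among the Id genes, *Id3* held 74.7%, 66.8% and 68.2% in the first 3 samples and 89.4% in Foxa1/2cKO replicate 2. The ratio of *Id3* to *Id2* was 3.06, 2.07 and 2.19 in those samples and 8.71 in Foxa1/2cKO replicate 2. Id RNA in Foxa1/2cKO replicate 2 was therefore higher in sum and made up of *Id3* to a larger extent.

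**Figure D3:**
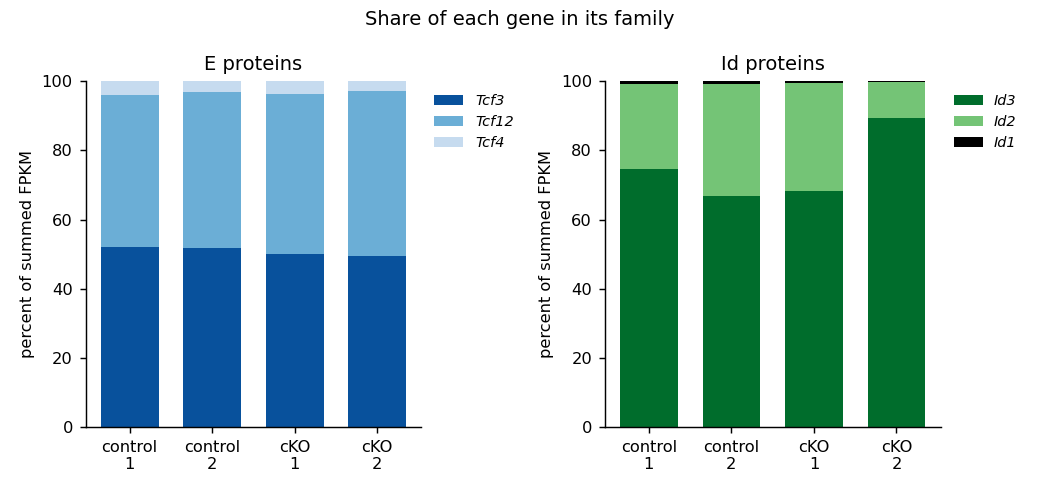
Percent of the summed FPKM of the E proteins (left) and of the Id proteins (right) held by each gene (y axis) in each sample (x axis). Bars are single samples; the share of *Id3* was 66.8% to 74.7% in 3 samples and 89.4% in Foxa1/2cKO replicate 2.

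The promoters of *Id2* and *Id3* are shown because these members departed in opposite directions in Foxa1/2cKO replicate 2. Each is the 250 bases before the start site in the RefSeq table (GRCm38.p6), written 5′ to 3′ on the strand of the gene, with capitals for E boxes. *Id2* is at chr12:25096093-25096342 on the minus strand and *Id3* at chr4:136143572-136143821 on the plus strand, and both windows had a GC content of 62.8%. Both windows lie inside the gene bounds given above, which are from GENCODE and begin further 5′ than these start sites.
Id2: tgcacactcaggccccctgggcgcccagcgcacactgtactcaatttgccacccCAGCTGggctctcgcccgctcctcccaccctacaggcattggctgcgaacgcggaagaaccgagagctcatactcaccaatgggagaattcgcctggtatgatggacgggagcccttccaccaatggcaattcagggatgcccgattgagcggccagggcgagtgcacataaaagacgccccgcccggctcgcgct
Id3: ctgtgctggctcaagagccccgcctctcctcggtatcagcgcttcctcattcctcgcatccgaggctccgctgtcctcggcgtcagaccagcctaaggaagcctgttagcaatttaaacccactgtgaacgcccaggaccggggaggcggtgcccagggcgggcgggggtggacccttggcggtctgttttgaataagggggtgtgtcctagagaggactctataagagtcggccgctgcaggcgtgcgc

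The E box was searched as CANNTG on both strands. The *Id2* window holds 1 match, CAGCTG, which starts 196 bases before the start site, and the *Id3* window holds 0. Of 32851 promoter windows of the same length, 66.2% hold a CANNTG and 13.0% a CAGCTG, which is one form of it. The forkhead motif TGTTTAC, in 3.17% of all windows, and the Egr motif GCGTGGGCG, in 0.536%, were in neither window. These letters describe only this window. Of the 6 members, 4 had promoters in the table, and the windows of *Tcf3* and *Tcf12* were searched in the same way. *Tcf3* had 1 CANNTG match, and of the 3 windows of *Tcf12* 2 had 1 match each.

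The RNA of 7 genes of the TCR response was set beside *Id3*. They include genes that follow the signal, such as *Cd5*, and *Cd69*, the surface marker of the sort. Their counts therefore do not measure the input to *Id3*. Of the 7 genes, 6 had a positive and 1 a negative log2 fold change, and 0 had an unadjusted p under 0.05. The median was 0.08, against 0.01 over all genes. In the controls, Foxa1/2cKO replicate 1 and Foxa1/2cKO replicate 2, *Cd5*, an inhibitory receptor whose level follows TCR signal strength, was at 484 and 423, 402 and 732 FPKM. *Nab2*, a corepressor of Egr factors, was at 110 and 86.8, 86.1 and 182 FPKM. Both were highest in Foxa1/2cKO replicate 2 and lowest in Foxa1/2cKO replicate 1, with control 1 above control 2.

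*Egr1* was at 167 and 137 FPKM in the controls, 117 in Foxa1/2cKO replicate 1 and 196 in Foxa1/2cKO replicate 2. *Egr3*, in contrast, was at 14.3 and 13.1 in control against 12.7 and 13.0 in Foxa1/2cKO, and *Cd69*, the surface marker of the sort, at 113 and 103 and at 107 and 121. *Egr3* was a little below both controls in both Foxa1/2cKO samples (log2 fold change -0.08, unadjusted p = 0.446 from limma). Without Foxa1/2cKO replicate 2 all 7 had a negative log2 fold change, with a median of -0.17. The positive direction of the 6 genes other than *Egr3* thus rested on the same sample as that of *Id3*. *Egr3* was negative in both fits. Their part in the *Id3* values was not tested.

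The 12 genes of BMP and TGF-β signalling, which acts on *Id1*, *Id2* and *Id3* through Smad proteins, included 9 that were tested, with 4 positive and 5 negative log2 fold changes and a median of -0.02. Of these 0 had an unadjusted p under 0.05. *Smad3*, the TGF-β signal transducer, was at 23.6 and 24.1 FPKM in control and at 27.4 and 26.7 in Foxa1/2cKO (log2 fold change 0.18, standard error 0.08, unadjusted p = 0.0915 from limma). *Smad1*, a BMP signal transducer, was at 8.25 and 8.12 and at 6.54 and 7.93. *Tgfbr2* was at 44.1 and 43.1 and at 49.3 and 45.0, and *Smad4*, the partner shared by both pathways, at 30.1 and 28.8 and at 30.4 and 33.0. The groups did not overlap for these 4 of the 9 genes, 3 of them higher and 1 lower in Foxa1/2cKO, where 36.7% of all genes tested did not overlap. The BMP receptor gene *Bmpr1a* and the related *Acvr1* were under 1 FPKM in all samples.

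*Id2* was set beside 4 markers of mature single-positive thymocytes. *Il7r*, the IL-7 receptor chain that E proteins keep low in DP cells, was at 33.7 and 44.1 FPKM in control, 41.5 in Foxa1/2cKO replicate 1 and 13.4 in Foxa1/2cKO replicate 2. *Ccr7*, the receptor for migration to the medulla, was at 82.5 and 91.7, 86.9 and 39.1. *Klf2* (37.0, 43.0, 43.4 and 17.0) and *S1pr1* (12.3, 13.9, 13.4 and 6.40), which serve thymic egress, were likewise lowest in Foxa1/2cKO replicate 2.

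In these 4 markers Foxa1/2cKO replicate 2 was thus the lowest sample and the other 3 lay close together, as for *Id2*. The 4 are not the whole list of mature markers that was measured, so their shared direction does not describe that list. Their summed FPKM was 166 and 193 in the controls, 185 in Foxa1/2cKO replicate 1 and 75.9 in Foxa1/2cKO replicate 2, and 0 of the 4 were at 0. Their part in the *Id2* values was not tested. NK and innate lymphoid markers, of cells in which *Id2* is high, summed to 44.3, 41.9, 51.3 and 32.6 in the 4 samples, and *Ncr1*, which defines NK cells, was at 0.0913 to 0.185.

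**Figure D4:**
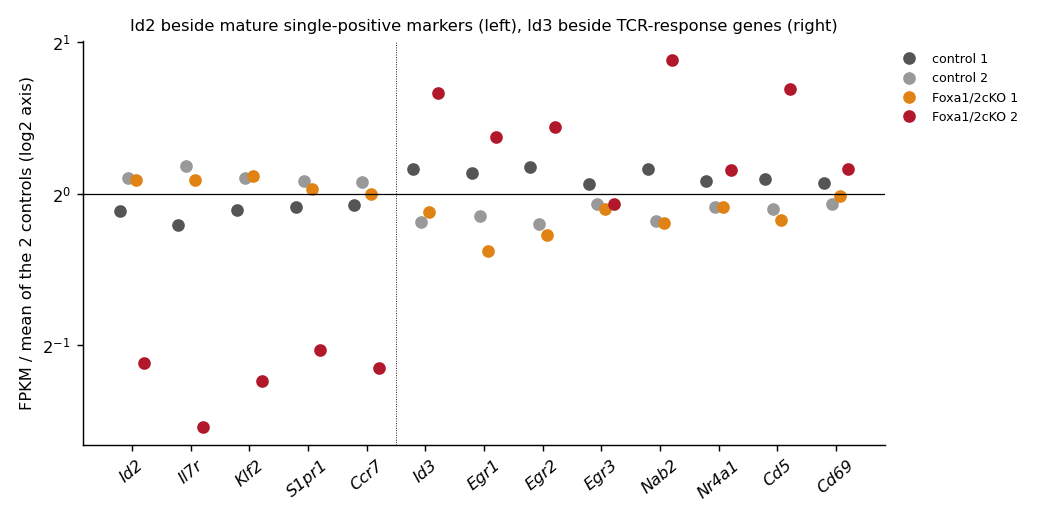
FPKM of each sample divided by the mean of the 2 controls (y axis, log2 scale) for *Id2* and 4 mature single-positive markers (left of the dotted line) and for *Id3* and 7 TCR-response genes (right). Points are single samples; in Foxa1/2cKO replicate 2, *Id2*, *Il7r*, *Klf2*, *S1pr1* and *Ccr7* lie below the other samples.

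Genes known to be controlled by E proteins in thymocytes formed a list of 17, of which 15 were tested. Of these 7 had a positive and 8 a negative log2 fold change, with a median of -0.06, and 0 passed the adjusted threshold. Over all genes tested the median was 0.01 and 51.3% were positive. The list holds *Il7r*, which E proteins keep low, beside genes they activate. Its counts and median therefore do not measure E protein activity. An unadjusted p under 0.05 was found for 2, both lower in Foxa1/2cKO (2.15% of all genes tested were lower with such a p). The groups did not overlap for 4 of the 15, where they did not for 36.7% of all genes tested. Of the 15, 3 were lower in Foxa1/2cKO without overlap, against 17.8% of all genes tested.

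*Ptcra*, which encodes the pre-TCR α chain and is activated through E boxes, had the smallest p. Its FPKM was 11.2 and 11.9 in control, 7.44 in Foxa1/2cKO replicate 1 and 3.23 in Foxa1/2cKO replicate 2, from 216, 208, 103 and 46 reads. Both Foxa1/2cKO samples lay below both controls, and Foxa1/2cKO replicate 2 was the lower. The log2 fold change was -1.08 (standard error 0.34, unadjusted p = 0.0273, limma, Benjamini-Hochberg adjusted p = 0.863) and -0.58 without Foxa1/2cKO replicate 2. *Notch3* was at 9.34 and 9.76 FPKM in control and at 7.02 and 3.60 in Foxa1/2cKO, in the same order of samples (limma, log2 fold change -0.80, unadjusted p = 0.0392), and its log2 fold change was -0.40 with Foxa1/2cKO replicate 2 left out. *Hes1*, a Notch target, was low, with 27 and 21 reads in the controls, 16 in Foxa1/2cKO replicate 1 and 2 in Foxa1/2cKO replicate 2.

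E proteins sustain the *Rag* genes in DP cells. *Rag1*, which makes the recombinase of the TCRα locus with *Rag2*, was at 363 and 375 FPKM in control, 449 in Foxa1/2cKO replicate 1 and 368 in Foxa1/2cKO replicate 2. *Rag2* was at 36.8 and 37.9 and at 39.9 in both Foxa1/2cKO samples, without overlap (log2 fold change 0.09, unadjusted p = 0.306 from limma). For *Rag1* the groups overlapped. Without Foxa1/2cKO replicate 2, 6 of the 15 had a positive log2 fold change, in a fit that rests on 1 Foxa1/2cKO sample.

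**Figure D5:**
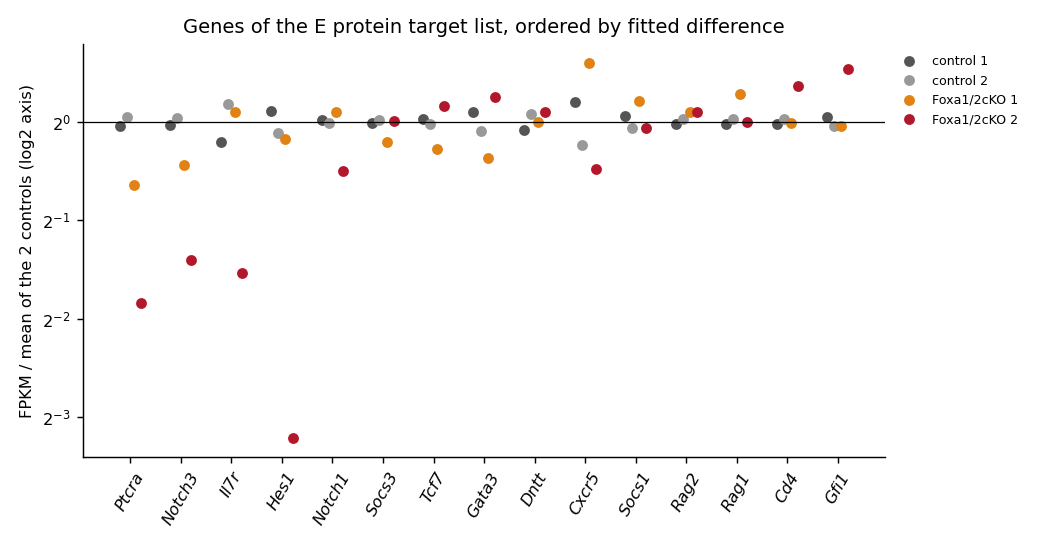
FPKM of each sample divided by the mean of the 2 controls (y axis, log2 scale) for the 15 tested genes of the E protein target list (x axis), from the most negative to the most positive log2 fold change. Points are single samples; both Foxa1/2cKO samples lie below the controls for *Ptcra*, *Notch3* and *Hes1*.

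Partners and cofactors of the E proteins were measured in 2 lists. Of 10 other helix-loop-helix genes, 1 passed the filter, *Lyl1*, at 3.19 and 2.21 FPKM in control and 3.70 and 2.30 in Foxa1/2cKO. *Tal1* was at 0 to 0.0345 FPKM, and *Id4*, the remaining Id gene, had 1 read in control 1 and 0 in the other samples. Of 10 cofactors, 7 were tested, all 7 had a positive log2 fold change with a median of 0.07, and 0 had an unadjusted p under 0.05. *Ldb1*, the adaptor that joins E protein and Lmo complexes, was at 230 and 240 FPKM in control, 206 in Foxa1/2cKO replicate 1 and 274 in Foxa1/2cKO replicate 2. The acetyltransferase genes *Kat2b* (15.6 and 14.7 against 16.4 and 18.2) and *Ep300* (34.7 and 29.6 against 33.1 and 36.9) and the corepressor gene *Cbfa2t2* (8.18 and 8.37 against 8.20 and 9.33) had log2 fold changes of 0.18, 0.12 and 0.07, and of 0.11, 0.05 and -0.01 without Foxa1/2cKO replicate 2. *Lmo4* was at 38.2 and 37.1 in control, 35.4 in Foxa1/2cKO replicate 1 and 53.9 in Foxa1/2cKO replicate 2. Without Foxa1/2cKO replicate 2, 4 of the 7 had a positive log2 fold change.

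The genes most like the E protein and the Id gene that varied most over the 4 samples, *Tcf12* and *Id2*, were found by the root mean square difference of log2(FPKM + 1) after centring each gene on its mean over the 4 samples. For *Tcf12* these were *Kdm4c*, *Anxa11* and *Arvcf*, with differences of 0.0057, 0.0064 and 0.0068 (median over all genes 0.162). For *Id2* these were *Tnfsf11*, *Rfc4* and *Dtl*, with differences of 0.027, 0.031 and 0.032 (median 0.512). *Tnfsf11* was at 7.35 and 8.77 FPKM in control, 8.99 in Foxa1/2cKO replicate 1 and 3.19 in Foxa1/2cKO replicate 2. All of these had their extreme value in Foxa1/2cKO replicate 2, as *Tcf12* and *Id2* had. This follows from choosing them by likeness over the same 4 samples, and is not a separate observation.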

How the data were processed

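CD69+DP thymocytes were sequenced in 2 control and 2 Foxa1/2cKO samples. Alignment was to mm10, and reads over RefSeq genes were counted by the authors in the union mode of HTSeq. The submitters' processing notes name TopHat, Picard and DESeq2. The strand setting of the gene counts and the tool that made FPKM are not given in the sources used here. The deposited table gives FPKM for each gene in every sample. Whole reads were recovered from the steps of each gene's FPKM (tolerance 0.02 reads) for 100.0% of the 16069 genes above 0, up to a common divisor, and gave a whole gene length for all 6 members. The file held 27 symbols turned into dates, left as listed.

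Foxa1/2cKO and control were compared with limma 3.58.1 in R 4.3.3 on log2(FPKM + 1), with a mean-variance trend (2 residual and 2.69 prior degrees of freedom) and Benjamini-Hochberg adjustment at 0.05 over all 10776 genes. Since FPKM are not counts, the reported fits are on log2(FPKM + 1), except those named as limma-voom, which used the recovered reads. The pipeline was tested on simulated data. P-values measure the spread between these samples. Of each list the 4 genes with the smallest p were to be named; others named for contrast were chosen after their values were seen. The members and lists were chosen with earlier results of these data known. Some genes of the target and marker lists are not reported here, and the counts, medians and sums of those lists leave them out. Alternatives were a pseudocount of 0.1, no filter, upper-quartile scaling, a replicate block, no trend and leaving out each sample. Limma-voom on the recovered reads and list counts without Foxa1/2cKO replicate 2 were chosen after seeing the data. Exon usage was not analysed here, and FPKM per gene do not show it. The paper names *Tcf3* and *Tcf12* among genes with differential exon usage in Foxa1/2cKO that were not differentially expressed. Tables and plots were made in Python 3.11.15 with pandas 2.3.3 and matplotlib 3.10.9.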

Additional observations from a re-analysis of the deposited data

How the results depend on the processing

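The log2 fold changes of the 6 members kept their direction and stayed short of the adjusted threshold with a pseudocount of 0.1, no filter, upper-quartile scaling, the replicate block, no trend and limma-voom. For *Id1* the log2 fold change of -0.55 became -0.86 with a pseudocount of 0.1 and -0.89 with limma-voom. With 1 sample left out the log2 fold changes ranged from 0.004 to 0.18 for *Tcf3*, 0.12 to 0.34 for *Tcf12*, -0.19 to 0.12 for *Tcf4*, -0.72 to -0.37 for *Id1*, -1.09 to 0.093 for *Id2* and -0.11 to 0.67 for *Id3*. The sign turned for *Tcf4* (0.12 without control 1, 0.05 without Foxa1/2cKO replicate 2), *Id2* (0.093) and *Id3* (-0.11 without Foxa1/2cKO replicate 2). The fits without a Foxa1/2cKO sample take the lone remaining one to vary as the controls do, so their p-values are not given for the members. The number of genes called was 1 (490 at an unadjusted p under 0.05), then 0 with a pseudocount of 0.1, no filter, upper-quartile scaling and limma-voom (477, 802, 531 and 517 unadjusted p under 0.05), and 0 to 2559 with 1 sample left out (19 without Foxa1/2cKO replicate 2, 2559 without Foxa1/2cKO replicate 1). The replicate numbers mark no shared litter or day in the labels, and deviations of same-numbered samples had a correlation of -0.0587. With the replicate number as a block 1 gene was called and the *Id1* log2 fold change of -0.55 had an unadjusted p of 0.0422 (adjusted p = 0.998 from limma). The difference between the groups in the log2 ratio of E protein to Id RNA, 0.02, ranged from -0.09 to 0.12 with 1 sample left out. For *Id1*, with 9 to 32 reads, depth limits the precision; for the other members the spread between samples does.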

Other observations

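Other basic helix-loop-helix factors of lymphocytes, which bind related motifs, formed a list of 10, of which 9 were tested, with 4 positive and 5 negative log2 fold changes and a median of -0.04. *Hif1a*, the hypoxia factor, was at 32.7 and 32.4 FPKM in control and at 37.6 and 39.5 in Foxa1/2cKO (log2 fold change 0.24, standard error 0.08, unadjusted p = 0.0384, adjusted p = 0.863 from limma), and it stayed at 0.20 without Foxa1/2cKO replicate 2. *Tfap4*, a target of Myc, was at 8.95 and 8.89 in control and at 7.89 and 5.84 in Foxa1/2cKO. *Myc* itself was at 53.5 and 54.0 in control, 52.4 in Foxa1/2cKO replicate 1 and 20.7 in Foxa1/2cKO replicate 2, so that its log2 fold change of -0.68 was -0.04 without Foxa1/2cKO replicate 2. *Arnt*, the partner of *Hif1a*, was at 22.6 and 24.6 in control and 23.3 and 27.2 in Foxa1/2cKO.

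Of the remaining marker lists, erythroid *Hba-a1* and *Hbb-bs* were listed at 0 in all samples. The 6 myeloid markers summed to 34.6, 21.1, 33.2 and 16.9 FPKM in control 1, control 2, Foxa1/2cKO replicate 1 and Foxa1/2cKO replicate 2. *Xist* was at 84.1 to 114 FPKM in all 4 samples, while *Ddx3y*, *Eif2s3y* and *Kdm5d* were at 0.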
